A study of Mus musculus with 18 samples.

Results

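The genes described here are 9 imprinted genes that act on fetal growth: Mest, Plagl1, Peg3, Ndn, Dlk1, Igf2, Igf2r, Grb10 and Cdkn1c. They were chosen by name, and 8 of the 9 have a row in the deposited table of 12988 genes; Dlk1 was not analysed here. All 8 passed the filter on low values (at least 1 FPKM in at least 3 libraries), as did 12052 genes in all.

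Imprinted genes are transcribed mainly from the maternal or the paternal chromosome. In the mouse, Mest, Plagl1, Peg3, Ndn, Dlk1 and Igf2 are known as paternally expressed, and Igf2r, Cdkn1c and, in most tissues, Grb10 as maternally expressed. Many of them are transcribed strongly in the fetus and turned down after birth, in the heart as elsewhere. Igf2 is a secreted growth factor, Igf2r carries it to lysosomes, Grb10 restrains insulin and IGF receptor signalling, and Cdkn1c inhibits cyclin-dependent kinases.

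The study sequenced RNA of mouse hearts, in 18 libraries. Every group had received adeno-associated virus serotype 9 (AAV9) under the skin as newborns, either a control vector or a vector with mouse Fgf17, a secreted fibroblast growth factor. At 8 weeks of age the left anterior descending coronary artery was tied permanently to cause a myocardial infarction (MI), or the mice had a sham operation. The groups were sham with the control vector (4 libraries), MI day 3 with the control vector (4), MI day 3 with Fgf17 (4), MI day 14 with the control vector (3) and MI day 14 with Fgf17 (3). The labels give no mouse strain, no sham day, no promoter for the transgene and no statement that libraries came from separate animals, so p-values measure only the spread between these libraries. The 4 sham libraries served as the reference at day 3 and at day 14, and sham hearts with Fgf17 were not part of the design.

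Levels are FPKM, which scales fragments by transcript length and by the mapped fragments of the library, and sequencing depth is unknown. Fgf17 was listed at 0 in sham and stayed at or below 0.380 FPKM in the control vector libraries after MI. With the Fgf17 vector it lay between 45.3 and 93.4 FPKM, so that no library went against its vector label. All 9 cardiomyocyte markers were present, with summed levels of 5947 to 10240 FPKM. Mitochondrially encoded genes took 35.6 to 41.7% of the summed FPKM in sham and 18.8 to 35.1% in the other groups, with the lowest shares in MI day 3 control library 4 (18.8%) and MI day 14 Fgf17 library 4 (20.8%). Of 4 lung epithelial markers, 2 were in the table and neither passed the filter. Sftpc, a surfactant gene, was listed at 0 in sham and at day 3, but was 18.3 FPKM in MI day 14 Fgf17 library 1 and 4.68 in MI day 14 control library 2. It was listed at 0 in the other 2 Fgf17 libraries of day 14, and Scgb1a1 reached 4.83 FPKM in sham.

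The windows upstream of the transcript start are shown for the 3 members called higher than sham at both MI days, Mest, Grb10 and Ndn, and for Peg3, whose window holds a palindrome that Plagl1 is known to bind. They are the 250 bases before the start in RefSeq (GRCm38.p6), written 5′ to 3′ on the strand of the gene, with CpG dinucleotides in capitals. Imprints are methylated at CpG dinucleotides, but methylation was not measured here, and the capitals do not mark imprinted sites. RefSeq windows matched 8 of the 9 genes, all but Cdkn1c. RefSeq starts can differ from those of the gene annotation (GENCODE M21) that shares the coordinates of the deposited levels. There Ndn has 1 transcript, from 62346569 to 62350262, so its window lies inside that transcript. The Mest and Grb10 windows also lie inside their annotated genes, which have 11 and 9 transcripts.
Mest window 1, chr6:30733256-30733505, plus strand: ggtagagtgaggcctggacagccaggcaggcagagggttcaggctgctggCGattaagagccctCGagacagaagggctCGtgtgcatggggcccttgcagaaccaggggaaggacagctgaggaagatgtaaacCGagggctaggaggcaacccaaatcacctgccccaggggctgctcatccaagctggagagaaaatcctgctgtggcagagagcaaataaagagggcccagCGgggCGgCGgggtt
Mest window 2, chr6:30737800-30738049, plus strand: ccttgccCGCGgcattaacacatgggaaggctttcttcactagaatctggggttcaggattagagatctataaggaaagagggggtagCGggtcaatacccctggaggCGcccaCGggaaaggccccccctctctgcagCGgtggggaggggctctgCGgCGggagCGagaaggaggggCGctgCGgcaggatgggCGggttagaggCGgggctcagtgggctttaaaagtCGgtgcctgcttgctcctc
Grb10 window 1, chr11:12027972-12028221, minus strand: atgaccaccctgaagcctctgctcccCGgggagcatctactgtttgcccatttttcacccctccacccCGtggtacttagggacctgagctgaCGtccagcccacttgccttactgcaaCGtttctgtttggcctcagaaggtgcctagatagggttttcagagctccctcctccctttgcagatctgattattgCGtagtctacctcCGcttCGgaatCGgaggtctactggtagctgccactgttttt
Grb10 window 2, chr11:12037421-12037670, minus strand: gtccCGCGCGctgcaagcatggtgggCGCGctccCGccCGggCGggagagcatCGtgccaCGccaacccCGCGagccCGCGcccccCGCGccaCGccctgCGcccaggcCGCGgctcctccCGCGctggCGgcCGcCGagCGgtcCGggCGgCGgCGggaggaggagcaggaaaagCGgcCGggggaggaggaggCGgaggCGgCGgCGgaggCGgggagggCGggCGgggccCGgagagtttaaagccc
Ndn, chr7:62348027-62348276, plus strand: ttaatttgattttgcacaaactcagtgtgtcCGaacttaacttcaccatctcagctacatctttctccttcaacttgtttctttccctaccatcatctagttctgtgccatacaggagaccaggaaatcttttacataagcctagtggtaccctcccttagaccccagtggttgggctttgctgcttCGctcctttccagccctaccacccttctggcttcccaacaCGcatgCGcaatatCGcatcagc
Peg3, chr7:6730420-6730669, minus strand: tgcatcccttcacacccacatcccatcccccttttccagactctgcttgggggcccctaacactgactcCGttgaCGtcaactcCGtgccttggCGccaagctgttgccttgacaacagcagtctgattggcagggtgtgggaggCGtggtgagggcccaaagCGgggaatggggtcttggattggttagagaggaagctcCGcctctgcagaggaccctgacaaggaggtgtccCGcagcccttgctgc

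CpG content separated these windows. Grb10 window 2 held 40 CpGs, and 98.7% of all 32817 windows of this length held fewer; Grb10 window 1 held 8. Mest window 2 held 14 CpGs and window 1 held 7. Ndn held 5 and Peg3 8, near the median of 6 over all windows. The motif GGGCGG, the core of the GC box read by Sp and Klf factors, was searched on both strands. It occurred 5 times in Grb10 window 2, once in each Mest window and not in the Ndn or Peg3 windows, while 32.7% of all windows hold it. The palindrome GGGGCCCC, searched the same way, started 201 bases upstream of the Peg3 start; it is in 0.884% of all windows and overlaps no GGGCGG match there. TATAAA, the core of the TATA box, and GCCATNTT, the YY1 core, were searched as well and are in 12.4% and 3.9% of all windows; neither was in the 6 windows shown.

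**Figure D1:**
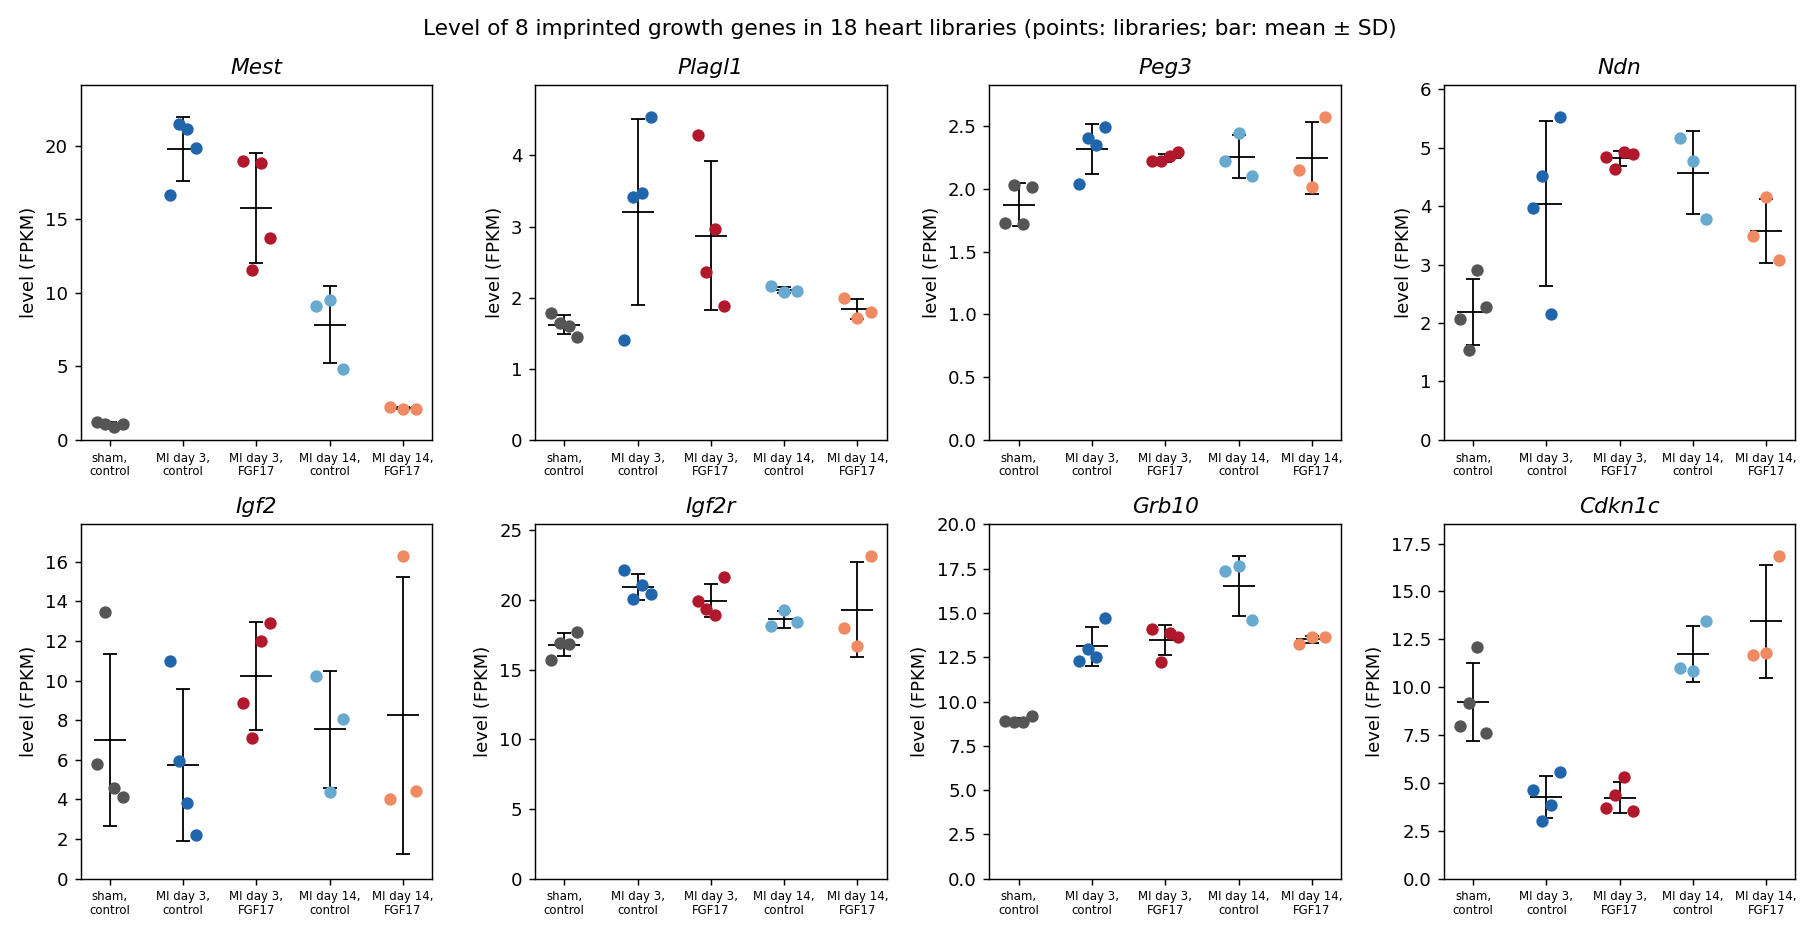
Level of the 8 measured genes (FPKM, linear axes from 0) in each library of the 5 groups. Points are libraries, and black marks are the mean ± SD (n = 4, 4, 4, 3 and 3). Mest lies between 0.898 and 1.23 FPKM in sham and between 16.7 and 21.5 at MI day 3 with the control vector, and Cdkn1c is lower than sham at day 3.

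Mest (ENSMUSG00000051855.15, chromosome 6, 30723547 to 30748465, plus strand, GRCm38) encodes a membrane protein of the alpha/beta hydrolase fold. It had the widest range of the 8 genes. Its levels were 1.23, 1.06, 0.898 and 1.05 FPKM in sham and 16.7, 21.5, 21.1 and 19.8 FPKM at MI day 3 with the control vector. At MI day 14 with the control vector they were 9.13, 9.54 and 4.81 FPKM. With Fgf17 they were 18.98, 11.5, 18.9 and 13.8 FPKM at day 3, and 2.25, 2.104 and 2.13 FPKM at day 14. Every MI library lay above every sham library, the Fgf17 day 14 libraries lay closest to sham, and the day 14 groups did not overlap. Such separation was common among all tested genes. With the control vector, 42.1% of them lay wholly above sham at day 3 and 43.3% at day 14. At day 14, 14.8% lay wholly lower with Fgf17 than with the control vector. The level order was MI day 3 control, MI day 3 Fgf17, MI day 14 control, MI day 14 Fgf17 and sham, and of the neighbours in that order only the day 3 groups overlapped.

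Against sham, Mest rose 18.6-fold at day 3, from 1.06 ± 0.137 to 19.8 ± 2.18 FPKM (SD, n = 4 and 4), a log2 change of 3.70 ± 0.18 (SE; limma, adjusted p = 3.24e-11). At day 14 with the control vector it stood at 7.83 ± 2.62 FPKM (n = 3), 7.37-fold above sham, and the log2 change was 2.36 ± 0.20 (limma adjusted p = 8.62e-08). Among 12052 genes, ranked by the size of the rise, Mest was number 51 at day 3 and number 94 at day 14. The fall between the days, 1.33 on the log2 scale in the control arm (SE 0.20, limma adjusted p = 6.31e-05), was also called. In the Fgf17 arm Mest fell by 2.58 on the log2 scale between the days (SE 0.20, limma adjusted p = 3.51e-08). Mest is a host gene of Mir335, and 912 of its 3945 annotated exonic bases (23.1%) overlap exons of Copg2 on the other strand. The strand setting of the reads is not given, so reads there cannot be assigned; Copg2 (an imprinted coat protein gene) itself changed by 0.30 ± 0.09 log2 at day 3, from 6.17 to 7.70 FPKM.

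Mest was lower with Fgf17 at day 14. It was 2.16 ± 0.0757 FPKM with Fgf17 and 7.83 ± 2.62 FPKM with the control vector (SD, n = 3 and 3), 3.62-fold lower, with a log2 change of -1.59 ± 0.21 (limma adjusted p = 0.00107). By size of fall it ranked 14 of the 12052 genes. The change was called in all 28 alternatives, at -1.89 to -1.43 log2, and was -1.61 ± 0.24 without MI day 14 Fgf17 library 1 and -1.43 ± 0.22 without MI day 14 control library 2, the libraries with the most Sftpc. At day 3 the values were 15.8 ± 3.74 and 19.8 ± 2.18 FPKM (n = 4 and 4), and the log2 change of -0.34 ± 0.18 was not called (limma adjusted p = 0.669). The difference between the effects at the 2 days was -1.25 ± 0.28 log2 and missed the threshold (limma adjusted p = 0.0596). It passed in only 4 of 28 alternatives, with limma adjusted p from 0.00957 to 0.198 across them. Those 4 were median-of-ratios scaling (0.0465), rescaling without mitochondrial genes (0.0338) and leaving out either of 2 libraries. The libraries were MI day 3 Fgf17 library 2 (0.0373) and MI day 14 control library 4 (0.00957). The latter had the lowest Mest level of the day 14 control libraries.

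Plagl1 (ENSMUSG00000019817.18, chromosome 10, 13060504 to 13131694, plus strand) encodes a zinc finger transcription factor that is known to regulate other imprinted genes. It was 1.78, 1.64, 1.61 and 1.45 FPKM in sham. At day 3 with the control vector it was 1.41, 3.42, 3.47 and 4.54 FPKM, so that library 1 lay below every sham library while the other 3 lay above them. At day 14 the 3 control vector libraries, 2.16, 2.07 and 2.09 FPKM, lay above sham by a small margin. The day 3 log2 change was 0.73 ± 0.23 (limma adjusted p = 0.0127), but it lost the call under median-of-ratios scaling (0.0815), with the library number as a block (0.0671) and without MI day 3 control library 4 (0.0523). Without library 1 of that group it was 1.02 ± 0.17 log2 (adjusted p = 1.06e-04), and the fall of 0.72 on the log2 scale from day 3 to day 14 was then called (0.00899). At day 14 the log2 change of 0.30 ± 0.25 was not called (limma adjusted p = 0.337), but with only the groups compared in the fit it was, at 0.30 ± 0.10 (0.0361). With Fgf17 the levels were 4.29, 2.36, 2.96 and 1.88 FPKM at day 3 and 1.99, 1.72 and 1.81 at day 14, without a called change at either day.

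Peg3 (ENSMUSG00000002265.16, chromosome 7, 6703892 to 6730431, minus strand) encodes a zinc finger protein known for effects on fetal growth and maternal behaviour. Its levels lay within a narrow range. Sham levels were 1.73, 2.03, 1.72 and 2.01 FPKM, and day 3 control vector levels were 2.04, 2.41, 2.35 and 2.49 FPKM. The groups touched without overlapping, and the log2 change of 0.25 ± 0.09 was called (limma adjusted p = 0.0222) but was close to the all-gene median of 0.25. Under median-of-ratios scaling its value was 0.002 log2 (adjusted p = 0.986), and the call was also lost in the other alternatives that are listed with the sensitivity results. At day 14 with the control vector it was 2.23, 2.44 and 2.102 FPKM, a log2 change of 0.22 ± 0.10 against sham (limma adjusted p = 0.0690). With Fgf17 the libraries of both days lay between 2.02 and 2.57 FPKM, and neither day was called.

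Ndn (ENSMUSG00000033585.5, chromosome 7, 62346569 to 62350262, plus strand) encodes necdin, a MAGE family protein that restrains cell growth. Its levels were 2.07, 1.53, 2.90 and 2.27 FPKM in sham, 3.97, 4.53, 2.16 and 5.52 at MI day 3 with the control vector and 5.17, 4.77 and 3.79 at day 14. All 3 libraries at day 14 lay above sham, whereas at day 3 library 3 lay among the sham libraries. The log2 changes were 0.72 ± 0.20 at day 3 (limma adjusted p = 0.00485) and 0.93 ± 0.21 at day 14 (0.00182). Both remained called in every alternative that could be run, and the day 3 change was 0.46 to 0.95 log2 across them. With Fgf17 the levels were 4.84, 4.63, 4.92 and 4.89 FPKM at day 3 and 3.48, 4.16 and 3.09 at day 14, with no call at either day (limma adjusted p = 0.789 and 0.403). Neurons are known to transcribe Ndn. Schwann cell and neuronal markers summed to 10.1 to 12.5 FPKM in sham and 16.7 to 23.3 at day 14, with 2 of 4 tested markers called higher, and their part in the result was not tested.

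Igf2 (ENSMUSG00000048583.16, chromosome 7, 142650766 to 142666816, minus strand) is the ligand. Of the 8 genes it varied most between libraries of a group. Its levels were 5.81, 13.4, 4.59 and 4.14 FPKM in sham, 11.0, 5.96, 3.79 and 2.18 at day 3 and 10.2, 4.37 and 8.05 at day 14, both with the control vector. With Fgf17 they were 8.88, 7.08, 12.0 and 12.9 at day 3 and 4.01, 16.3 and 4.42 at day 14. All groups overlapped. The median coefficient of variation within a group was 62.3%, against 12.5% for all tested genes, and 1.13% of tested genes were more variable. No comparison called Igf2: the log2 changes were -0.32 ± 0.47 at day 3, 0.18 ± 0.51 at day 14 and 0.95 ± 0.47 with Fgf17 at day 3 (limma adjusted p = 0.573, 0.791 and 0.614). Igf2 shares 3596 of its 5723 annotated exonic bases with Gm49394, a gene on the same strand, so reads there may not be separable.

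Igf2r (ENSMUSG00000023830.13, chromosome 17, 12682406 to 12769664, minus strand) encodes the scavenging receptor, which also sorts enzymes tagged with mannose 6-phosphate. Its median coefficient of variation of 4.85% was the lowest of the 8 genes, with values of 15.7 to 23.2 FPKM in all 18 libraries. Sham levels were 15.7, 16.9, 16.8 and 17.7 FPKM and day 3 control levels 22.2, 20.04, 21.1 and 20.4 FPKM. No day 3 library fell within the sham range, and the log2 change was 0.31 ± 0.09 (limma adjusted p = 0.00510), near the all-gene median of 0.25. It was 0.01 log2 under median-of-ratios scaling (adjusted p = 0.912) and 0.12 after rescaling without mitochondrial genes (0.251). At day 14 with the control vector the levels were 18.1, 19.3 and 18.4 FPKM, a log2 change of 0.14 ± 0.09 (limma adjusted p = 0.211). With Fgf17 they were 19.9, 19.4, 18.9 and 21.6 FPKM at day 3 and 18.01, 16.7 and 23.2 at day 14, and neither day was called. FPKM corrects for length, but 64.5% of the annotated exonic bases of Igf2 are shared with other genes. As a description only, the ratio of Igf2 to Igf2r level was 0.418 ± 0.259 in sham, 0.270 ± 0.170 at day 3 and 0.409 ± 0.171 at day 14 with the control vector (SD, n = 4, 4 and 3). With Fgf17 it was 0.511 ± 0.127 at day 3 and 0.463 ± 0.444 at day 14 (n = 4 and 3). The groups overlapped, and the ratio was not tested.

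Grb10 (ENSMUSG00000020176.17, chromosome 11, 11930508 to 12038683, minus strand) encodes the adaptor that restrains insulin and IGF receptors. In sham it was 8.89, 8.86, 8.86 and 9.17 FPKM. With the control vector it was 12.3, 12.99, 12.5 and 14.7 FPKM at MI day 3 and 17.4, 17.6 and 14.6 at MI day 14. With Fgf17 it was 14.1, 12.3, 13.9 and 13.7 at day 3 and 13.3, 13.6 and 13.6 at day 14. All MI libraries lay above sham. At day 14 the 2 vectors did not overlap, as for 14.8% of all tested genes in the same direction. Grb10 rose by 0.52 ± 0.08 log2 at day 3 (limma adjusted p = 1.41e-05) and by 0.85 ± 0.08 at day 14 (4.87e-07). Under median-of-ratios scaling these were 0.23 and 0.58 log2, still called. The rise from day 3 to day 14 in the control arm was 0.32 ± 0.08 log2 (limma adjusted p = 0.00689), and with only those groups fitted it was not called (0.0639). With Fgf17 at day 14 the log2 change was -0.28 ± 0.09 (limma adjusted p = 0.0565); it passed in 5 of 28 alternatives, among them leaving out MI day 14 control library 4, where it was 0.0151.

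Cdkn1c (ENSMUSG00000037664.13, chromosome 7, 143458339 to 143461050, minus strand) encodes the cell cycle inhibitor. It was the 1 member called lower at day 3. Its levels were 7.96, 9.15, 12.1 and 7.63 FPKM in sham and 4.63, 2.98, 3.82 and 5.55 at day 3 with the control vector. At day 14 they were 10.99, 10.8 and 13.4 FPKM, and with Fgf17 3.68, 4.37, 5.33 and 3.53 at day 3 and 11.7, 11.8 and 16.9 at day 14. All 8 libraries at day 3 lay below every sham library, and all 6 at day 14 lay above every library at day 3. Of all tested genes, 12.2% lay wholly below sham at day 3 with the control vector. From day 3 to day 14, 14.0% lay wholly higher with the control vector, and a larger share did so with Fgf17. The fall at day 3 was 1.04 log2 (SE 0.18, limma adjusted p = 8.70e-05) and ranked 157 of 12052 genes by size. From day 3 to day 14 the log2 change was 1.39 ± 0.19 with the control vector (limma adjusted p = 3.81e-05) and 1.56 ± 0.19 with Fgf17 (9.63e-06). Day 14 was not called against sham, with a log2 change of 0.35 ± 0.19 (limma adjusted p = 0.146). Antisense Gm44732 shares 625 of its exonic bases (30.7%), and the strand setting is not given.

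The ratio of Mest to Cdkn1c level was 0.121 ± 0.0348 in sham, 4.97 ± 1.74 at MI day 3 and 0.690 ± 0.289 at MI day 14 with the control vector (SD, n = 4, 4 and 3). With Fgf17 it was 3.81 ± 1.05 at day 3 and 0.166 ± 0.0348 at day 14 (n = 4 and 3). These ratios are descriptions of the levels above and were not tested.

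**Figure D2:**
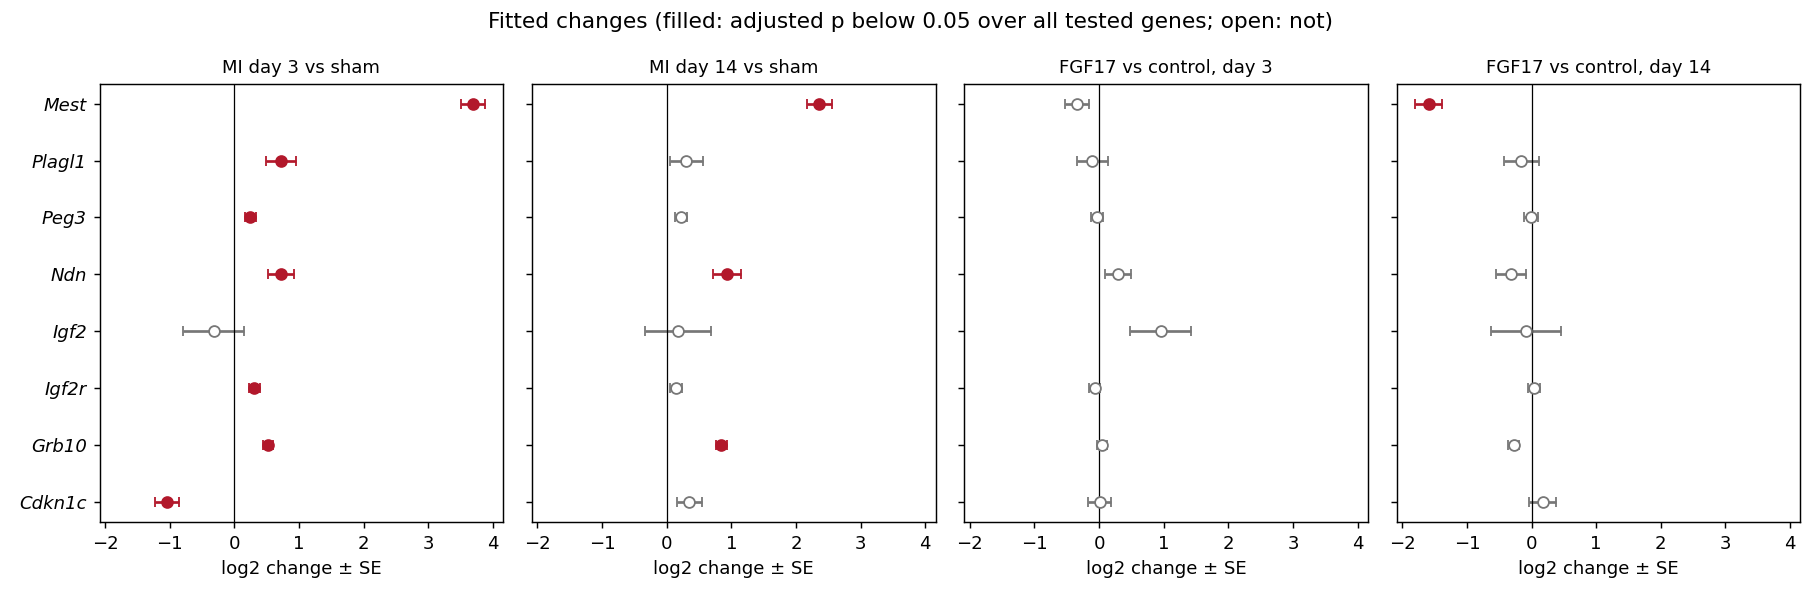
Fitted log2 change ± SE of the 8 genes in 4 comparisons, filled where the adjusted p is below 0.05 over all tested genes. Mest is the farthest from 0 in every panel except Fgf17 against control at day 3, where no gene is filled, and Cdkn1c is negative at day 3 only among the MI panels.

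Taking the members in order of comparison, 6 were called higher and 1 lower at day 3 against sham, where 45.9% of all tested genes were called higher and 15.0% lower. At day 14, 3 were called higher and 0 lower, against 41.0% and 9.00% of all genes. In the control arm from day 3 to day 14, 2 were called higher and 1 lower (background 11.2% and 18.3%), and in the Fgf17 arm 1 higher and 1 lower (16.2% and 22.5%). Fgf17 at day 3 called 0 of 8 by limma, where 0.232% of all genes were called, and 0 had an unadjusted p below 0.05 (8.54% of all genes). At day 14 it called 0 higher and 1 lower, Mest (3.63% and 5.98%), and 2 had an unadjusted p below 0.05, near the 26.7% of all genes. The difference between the Fgf17 effects called 0 (background 0.365%), with 2 at an unadjusted p below 0.05 (14.0% of all genes). The median log2 change of the members was 0.42 at day 3 and 0.33 at day 14, where the median of all tested genes was 0.25 at both days. Median-of-ratios scaling places that all-gene median near 0 by construction, here at -0.01 and 0.01. It brought the called genes at day 3 from 5535 higher and 1802 lower to 3645 and 3592, so small rises at day 3 depend on the scaling.

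The rest of the imprinted genes were mixed. Of 46 other imprinted genes listed, 23 were tested: 8 were called higher and 6 lower at day 3, and 5 higher and 3 lower at day 14, with medians of -0.03 and 0.05 log2. Under median-of-ratios scaling the day 3 count was 5 higher and 9 lower. Dio3, the enzyme that inactivates thyroid hormone, rose by 1.62 ± 0.31 log2 at day 3, from 0.0172 to 1.20 FPKM (limma adjusted p = 1.99e-04). Peg10, a retrotransposon-derived gene, rose by 0.62 ± 0.10 log2. Blcap fell by 0.72 log2 and Zrsr1, a splicing factor gene, also by 0.72 log2 at day 3. Sgce, the epsilon sarcoglycan gene, was the only one called with Fgf17 at day 14, with a log2 change of -0.36 ± 0.11 (limma adjusted p = 0.0431).

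**Figure D3:**
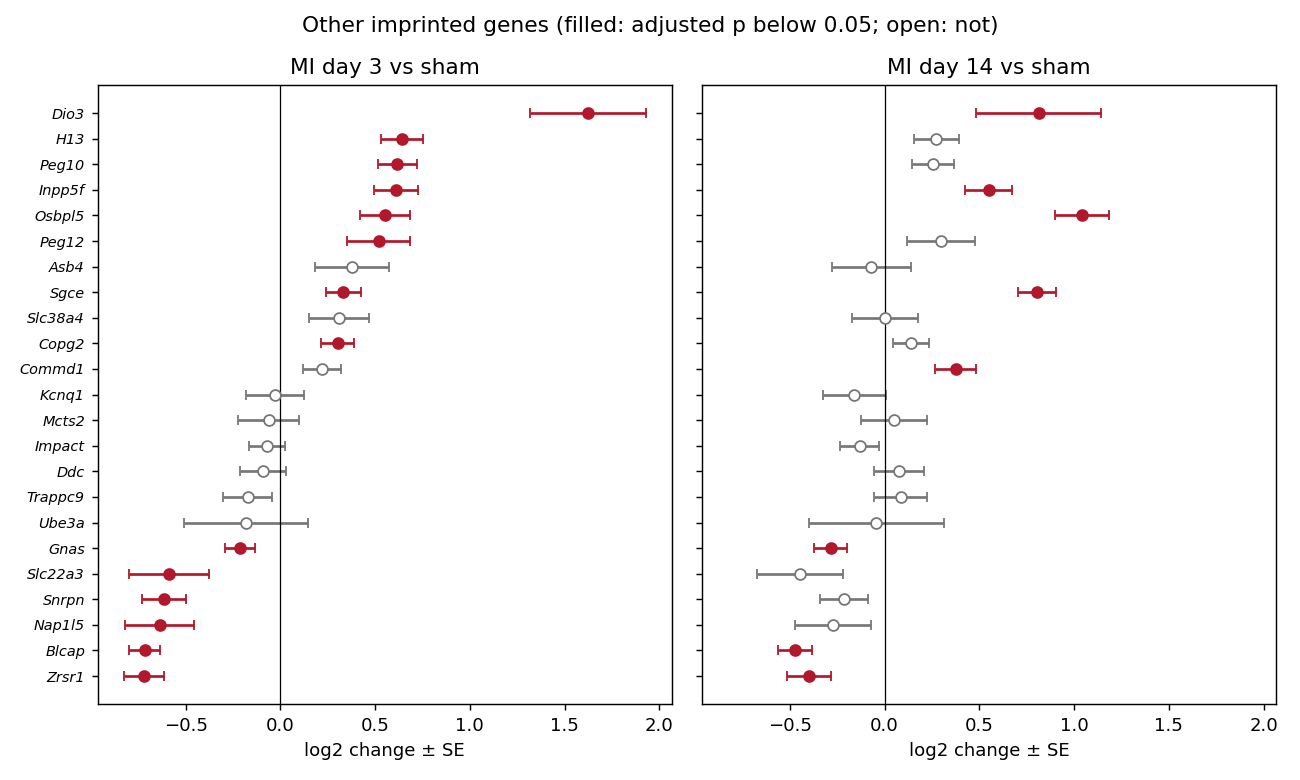
Fitted log2 change ± SE of the 23 tested imprinted genes that are not members, at MI day 3 and MI day 14 against sham, filled where the adjusted p is below 0.05. Rows are ordered by the day 3 change; Dio3 has the largest rise at day 3 and genes lie on both sides of 0.

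The other lists are read against the same shares of all tested genes, 45.9% higher and 15.0% lower at day 3 and 41.0% and 9.00% at day 14. Of 15 tested IGF ligand, receptor and binding protein genes, 6 were called higher and 4 lower at day 3, no larger a share of higher calls than over all genes, with a median of -0.08 log2. At day 14, 11 were called higher and 1 lower, with a median of 1.02 log2, where the all-gene median was 0.25. Igfbp7, a binding protein of the vessel wall, was 81.9 FPKM in sham, 250.3 at day 3 and 411.7 at day 14 with the control vector. Igf1, the other ligand, rose by 1.43 ± 0.13 log2 at day 3 and 1.26 ± 0.14 at day 14. Igfbp6 fell by 0.76 log2 at day 3 and rose by 1.174 ± 0.26 at day 14. With Fgf17 at day 14, 3 of 15 were called lower (5.98% of all genes): Igfbp2 by 1.76 log2, Igfbp7 by 0.83 and Igfbp3 by 0.51. Of 13 genes of mannose 6-phosphate sorting, the route Igf2r serves, 8 were called higher on each day, led at day 3 by Ap1s1 (1.41 ± 0.10 log2) and M6pr (0.996 ± 0.09). Of 10 tested growth factor receptor adaptors, 3 were called higher and 3 lower at day 3 (median -0.03 log2), with Shc1 at 0.88 ± 0.13 log2 and Sh2b1 at -0.60 ± 0.16.

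Cell cycle genes were called in the comparisons that called Mest. Of 18 tested cyclins, kinases and inhibitors, Cdkn1c not among them, 16 were called higher at day 3 and 17 at day 14. At day 3 Ccna2 rose from 0.0657 to 14.5 FPKM (4.72 ± 0.14 log2) and Cdk1 from 0.0805 to 7.58 FPKM (3.80 ± 0.13 log2). With Fgf17 at day 14, 7 were called lower, with Ccna2 at -1.17 ± 0.16 log2 and Cdk1 at -0.99 ± 0.15. Of 11 tested genes of imprint maintenance, 7 were called higher and 1 lower at day 3, Uhrf1 (3.75 ± 0.13 log2) and Dnmt1 (1.75 ± 0.13) leading. Of 16 Notch pathway and preadipocyte genes, listed because of Dlk1, 7 were called higher and 3 lower at day 3, near the shares of all genes. Sox9 was at 1.40 ± 0.16 log2, and Hey2, a target of Notch, at -0.43 ± 0.14. Of the 4 tested fetal growth regulators, 3 were called higher at day 3, with Sox4 at 1.08 ± 0.13 log2.

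Cell type markers moved in the same comparisons, and in bulk tissue fewer cells of a type and less RNA per cell cannot be told apart. Macrophage markers were called higher for 8 of 8 genes at both days, and activated fibroblast markers for 7 of 8, with summed levels of 111.4 to 146.7 FPKM in sham, 371.3 to 463.7 at day 3 and 388.5 to 550.4 at day 14 with the control vector. With Fgf17 at day 14 the sum was 227.9 to 414.7 FPKM and 5 of 8 were called lower, among them Cthrc1 at -1.33 ± 0.22 log2 and Postn at -1.36 ± 0.28. General fibroblast markers summed to 655.2 to 727.9 FPKM in sham, 1131 to 1538 at day 3 and 1508 to 1765 at day 14 with the control vector. Of 10, 7 were called higher and 2, Gsn and Dpep1, lower at day 3, and 8 higher at day 14. With Fgf17 at day 14 their sum was 1288 to 1560 FPKM, and 1 was called higher and 2 lower. Epicardial and mesothelial markers summed to 42.25 to 104 FPKM at day 3 and 15.8 to 28.0 in sham, and 4 of 9 were called higher at each day. Much of the day 3 sum was Aldh1a2, which went from a mean of 5.47 to 43.4 FPKM, while Wt1 was 1.25 and 1.26 FPKM and Upk3b 2.77 and 2.95, neither called. Of the cardiomyocyte markers, 6 of 9 were called lower at each day. Neutrophil markers were called higher for 6 of 6 at day 3 and 2 at day 14, and the 3 tested lymphocyte markers for 3 and 2. Adipocyte markers were called higher for 1 of 7 at day 3 and 6 at day 14, skeletal muscle markers for 1 and 3 of 4, and endothelial markers for 2 and 5 of 8. Some means in these lists were below sham at day 3 with the control vector. Ucp1 went from 9.9 to 3.35 FPKM, Ckm from 347.3 to 161.8 and Flt1 from 16.6 to 12.5. Pericyte and smooth muscle markers were called lower for 5 of 8 at day 3, and 4 were higher at day 14. In the same list, mean Tagln rose from 39.17 to 74.15 FPKM at day 3 and mean Pdgfrb from 12.31 to 16.85. Erythroid markers reached 15140 to 25730 FPKM at day 3 with the control vector and 4886 to 7941 with Fgf17. Markers of other cell types were also called with Fgf17 at day 14. Cardiomyocyte Tnnt2 (0.43 ± 0.10 log2) and Myh6 (0.61 ± 0.16) were higher, the only 2 of 9 called. Endothelial Cdh5 (-0.48 ± 0.10), macrophage C1qa (-0.49 ± 0.15), adipocyte Retn (-1.15 ± 0.33) and skeletal muscle Tnnt3 (-2.60 ± 0.57) were lower. Each of these 4 was the only gene of its list called. Of all tested genes, 3.63% were called higher and 5.98% lower. Endothelial Flt1 (0.11 log2), adipocyte Ucp1 (0.21) and skeletal muscle Ckm (0.26) had the other sign and were not called. The part of these cell types in the levels of Mest, Grb10, Cdkn1c and the other members was not tested.

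The 3 tested genes with a course most like that of each member were found by Pearson's r of log2 values over 18 libraries, as a description, since these libraries share 5 group means. Mest was closest to Primpol (r = 0.991), Knstrn (0.986) and Ube2c (0.985), the last 2 being genes of mitosis. Within groups, that is for deviations from group means, r fell to 0.60 for each of them. Cdkn1c was closest to Palm (0.973, within groups 0.794), Slc9a3r2 (0.969, 0.798) and Gsn (0.964, 0.818). Gsn is on the fibroblast list above, but it fell at day 3 (-1.10 ± 0.14 log2) while most of that list was called higher. Grb10 was closest to Cd34 (0.977, within groups 0.728), Ptgfrn (0.976, 0.741) and Col6a2 (0.969, 0.665). Igf2r was closest to Plxna1 (0.916, within groups 0.836) and Peg3 to Usp8 (0.889, within groups 0.758). Plagl1 was closest to Prdm4 (0.891, within groups 0.798) and Ndn to Trps1 (0.904, within groups 0.735). For Igf2 the highest r was 0.762, with Lactb2, and it was 0.763 within groups.

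**Figure D4:**
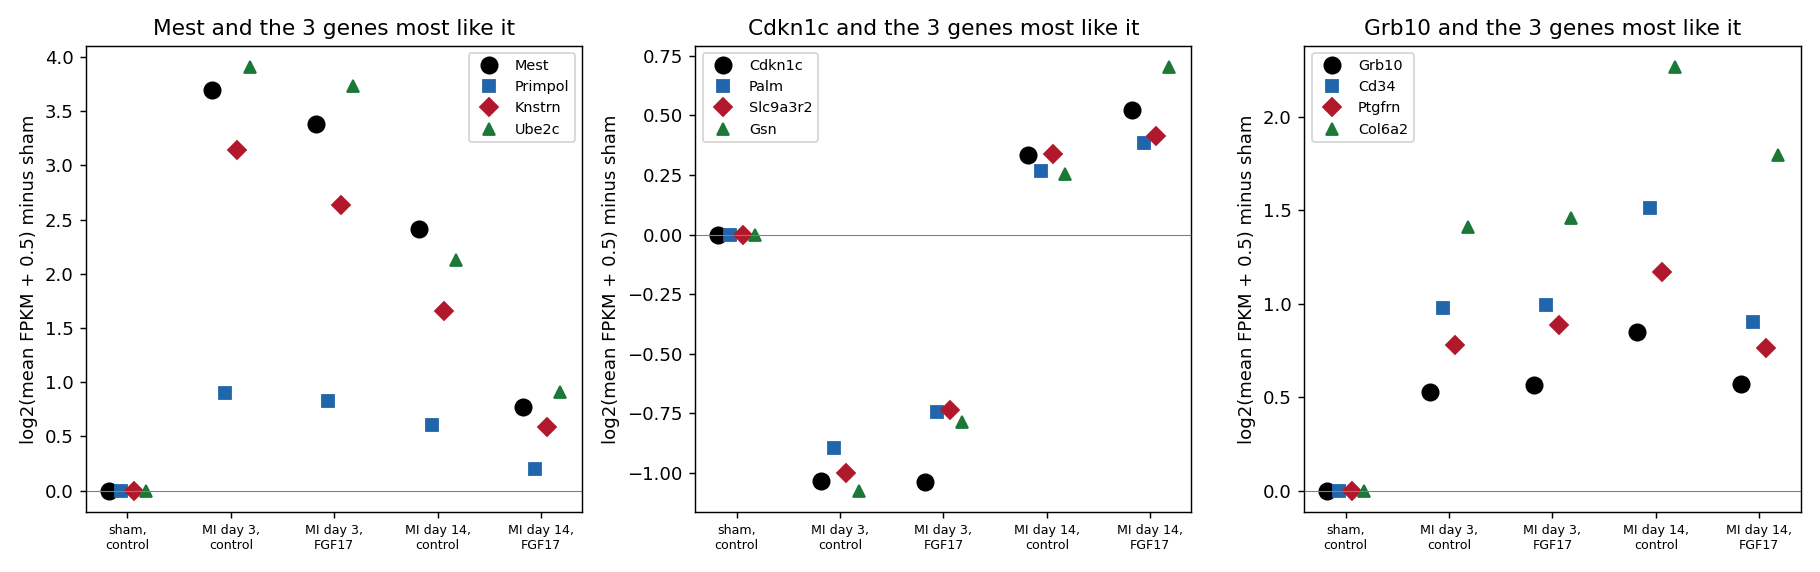
Group means of Mest, Cdkn1c and Grb10 and of the 3 genes most like each, as log2(mean FPKM + 0.5) minus the sham value, for the 5 groups. Points are offset sideways for reading. Mest and its 3 genes are highest at MI day 3, and Cdkn1c and its 3 genes are below 0 at day 3 and above 0 at day 14.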

How the data were processed

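RNA from 18 mouse heart libraries was sequenced. Per the submitters' processing notes the authors used FastQC 0.11.7, cutadapt 1.17, HISAT2 2.1.0 and StringTie 1.3.3 with GRCm38. The deposited values are FPKM per gene, and depth is unknown, so no counting intervals are given. Since a shift in the share of the most abundant transcripts moves all other FPKM values of a library, the scaling was varied. Columns were assigned to groups by name; library numbers are those of the columns, which differ from the numbers in the titles.

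FPKM was analysed as log2(FPKM + 0.5), which understates changes of low genes. The test covered the 12052 genes that reached 1 FPKM in 3 or more libraries. A model of 5 group means with 7 contrasts was fitted in limma 3.58.1 under R 4.3.3 (eBayes with trend), with two-sided Benjamini-Hochberg adjusted p over all tested genes within a contrast and a threshold of 0.05. The script was tested on simulated data. Alternatives were other pseudocounts, filters and scalings, robust eBayes, a library number block, a fit of only the groups compared and leaving out each library. Named genes are the members and, for each list and comparison, up to 4 of the genes with the smallest p. Copg2, for its overlap, and Igfbp6 were chosen after their values were seen. So were markers named because they went against the rest of their list or were not called, such as Dpep1, Wt1, Upk3b, Tagln and Ckm. Members and gene lists were chosen with earlier results of these data known. Sequences are from RefSeq (GRCm38.p6), and Python 3.11.15 was used.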

Additional observations from a re-analysis of the deposited data

Results flagged for a closer look

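In 24 groups of 4 libraries, 1 value stood apart by Dixon's test: Grb10 in sham library 5, at 9.17 FPKM, where the next highest was 8.89. The gap was 0.896 of the range of the 4 libraries, above the critical value for 4 samples. Chance flags about 1 in 20 groups, and the sham range was narrow, 8.86 to 9.17 FPKM. All sham libraries remained below every MI library for Grb10.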

How the results depend on the processing

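Of 1547 member values under an alternative, 1520 kept their direction or stayed uncalled, 13 lost a call, 14 gained one, and 0 called changes had the other sign; 48 uncalled values changed sign. Members called at MI day 3 against sham were 7; they were 4 with a filter of 5 FPKM and 4 under median-of-ratios scaling, and 5 to 7 when a library was left out. The filter of 5 FPKM removes members from the test. Under median-of-ratios scaling Igf2r, Peg3 and Plagl1 lost their calls, and after rescaling without mitochondrial genes 5 were called, Igf2r (0.12 log2, adjusted p = 0.251) and Peg3 (0.09 log2, 0.358) being lost. Peg3 also lost it with only the groups compared (adjusted p = 0.0520) and without MI day 3 control libraries 2 (0.0522) or 4 (0.0587) or sham libraries 1 (0.0616) or 4 (0.0653). Plagl1 at day 14 against sham gained a call with only the groups compared (adjusted p = 0.0361). Members called with Fgf17 at day 14 were 1, and 2 under the filter of 5 FPKM, median-of-ratios scaling and rescaling without mitochondrial genes, and 1 to 2 when a library was left out, Grb10 being the added gene. For the difference between the Fgf17 effects 0 were called, 1 under median-of-ratios scaling and rescaling without mitochondrial genes, and 0 to 1 with a library left out. Other imprinted genes called at day 3 were 14 and 7 under the filter of 5 FPKM, at day 14 8 and 5, and from day 3 to day 14 with Fgf17 7 and 4. From day 3 to day 14 with the control vector they were 6, 3 with only the groups compared, and 2 to 7 with a library left out. With Fgf17 at day 14 the 1 called, Sgce, became 0 under the filter of 5 FPKM, rescaling to a total of 1000000, the replicate block and only the groups compared, 2 under median-of-ratios scaling, and 0 to 2 with a library left out. The other lists had 12 called with Fgf17 at day 14, 2 with only the groups compared, and 5 to 16 with a library left out. For the difference of effects they had 2, and 1 with a pseudocount of 0.1, the filter of 5 FPKM or rescaling to 1000000, 4 under median-of-ratios scaling, 6 without mitochondrial genes, 0 with the replicate block or only the groups compared, and 0 to 4 with a library left out. Same-numbered libraries share only a number: of 29 pairs, 6 had a correlation of deviations over 0.1 (range -0.155 to 0.366). The library number as a replicate block called 6 members at day 3, Plagl1 being lost (adjusted p = 0.0671), and only sham library 5 carries number 5. Apart from the filter, the cause of these changes was not tested. Depth is unknown and sets no stated limit.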
